A study of Mus musculus with 12 samples.

Results

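The BCL2 family of apoptosis regulators was followed through 10 member genes, chosen by name from the table of counts, out of 24421 gene entries in all. The cells were mouse embryonic fibroblasts (MEFs), of 2 genotypes. Null MEFs are the control line, which the study's methods call wild type, and DKO MEFs lack TFEB and TFE3, a pair of transcription factors of lysosome and autophagy genes that were both inactivated by CRISPR-Cas9. Each genotype was studied without etoposide (Null control and DKO control) and after 8 h in 100 µM etoposide (Null etoposide and DKO etoposide), a drug that traps topoisomerase II on DNA and so breaks both strands, with 3 libraries in each of the 4 groups. The labels call the control cells untreated and the methods describe a DMSO vehicle. Each genotype is 1 line, so the loss of TFEB and TFE3 and other differences between the lines cannot be told apart. These MEFs were immortalized with SV40, whose large T antigen is known to bind p53.

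Proteins of the family decide whether the outer membrane of the mitochondrion is opened, which releases cytochrome c and starts the caspases. The effectors Bax and Bak1 form the pores, the pro-survival proteins Bcl2, Bcl2l1 (BCL-XL) and Mcl1 hold them in check, and the BH3-only proteins Bbc3 (PUMA), Pmaip1 (NOXA), Bid, Bcl2l11 (BIM) and Bmf bind the pro-survival proteins or activate the effectors. Bax, Bbc3 and Pmaip1 are known p53 target genes. Transcript counts say nothing of protein amounts, cleavage or location, by which much of the family is controlled.

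The libraries held from 66956083 to 83970210 counts on genes in Null control, from 66749645 to 104120871 in DKO control, from 63286195 to 76125320 in Null etoposide and from 45577023 to 94388705 in DKO etoposide. Levels are given as CPM, the counts relative to the library's total count after TMM scaling, and differences as log2 fold changes tested with edgeR (quasi-likelihood), where p-values were adjusted by the Benjamini-Hochberg method over 15220 genes and the threshold was 0.05. All 10 members were tested, and the lowest count of any was 31, for Bmf in a Null control library.

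The targeted genes were looked at first. Tfeb was measured at 38.9, 39.2 and 42.1 CPM in the Null control libraries and at 4.60, 6.09 and 4.68 CPM in DKO control. It was lower after etoposide in both lines, at 11.4, 10.2 and 10.4 CPM in Null etoposide (log2 fold change -1.91, standard error 0.08) and at 1.92, 1.61 and 2.20 CPM in DKO etoposide. Tfe3 stood at 115, 110 and 114 CPM in Null control and at 94.1, 93.0 and 91.0 CPM in DKO control, and after etoposide the DKO libraries (63.4 to 71.2 CPM) overlapped the Null libraries (68.1 to 69.6 CPM). Editing can leave a transcript that encodes no working protein, so the level of Tfe3 does not check the label. The fibroblast markers were abundant, with 9 of 9 in the table, a summed level of 7121 ± 59.5 CPM (SD, n = 3) in Null control and Vim as the most abundant gene. Thy1 was at 4.21 ± 0.251 CPM in Null control and at 0.0365 ± 0.022 CPM (SD, n = 3 each) in DKO control, near 0. The other fibroblast markers were all higher in DKO control than in Null control. Vim was at 2696 ± 49.9 against 2390 ± 19.4 CPM and Pdgfra at 197 ± 9.75 against 20.9 ± 0.576 CPM (SD, n = 3 each). Summed fibroblast markers were 11741 ± 322 CPM in DKO control, 3990 ± 53.1 CPM in Null etoposide and 5195 ± 167 CPM in DKO etoposide (SD, n = 3 each), so the sums differed between all 4 groups by more than their SD, and their part in the results was not tested. Group means of summed epithelial markers (4 of 4 in the table) ran from 2.06 CPM in DKO etoposide to 5.35 CPM in DKO control. Null control was at 2.60 CPM and Null etoposide at 2.49 CPM. Endothelial markers (3 of 3) summed to 0.0821 CPM in Null control and 0.0759 CPM in DKO control. After etoposide they summed to 1.21 CPM in Null and 0.76 CPM in DKO MEFs, and their part in the results was not tested. Macrophage markers (4 of 4) summed to 1.75 ± 0.156 CPM in Null control, 2.12 ± 0.565 CPM in DKO control, 13 ± 0.592 CPM in Null etoposide and 3.81 ± 0.555 CPM in DKO etoposide (SD, n = 3 each), most of it Cd68, while Adgre1 had 0 counts in both control groups and at most 6 in a library after etoposide. Fewer cells of a kind and less RNA per cell cannot be told apart in these bulk samples.

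**Figure D1:**
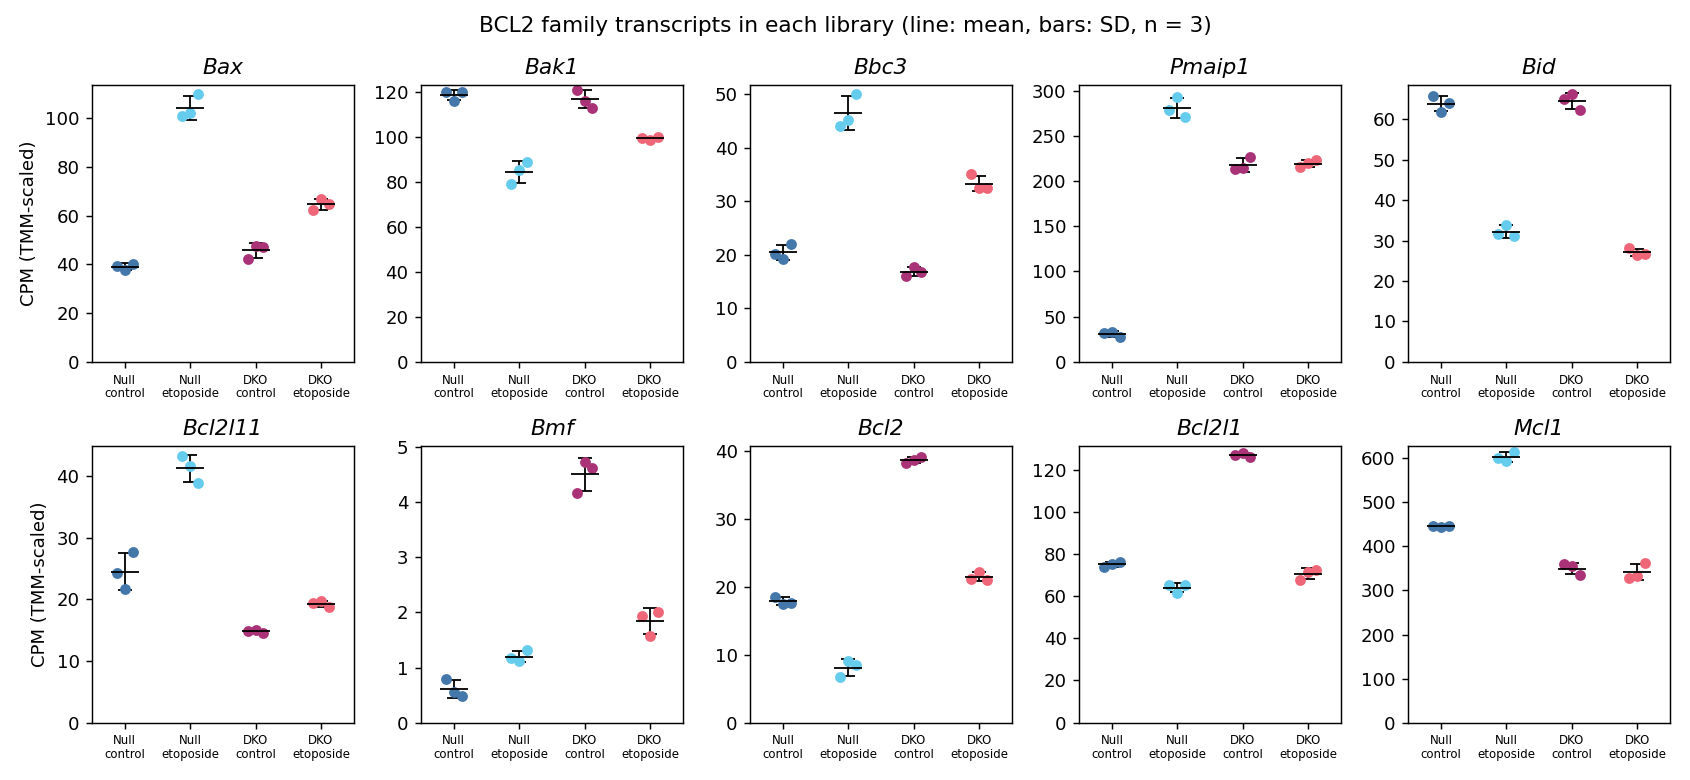
Level of each of the 10 members in CPM (vertical axes, from 0) in the 3 libraries of each group, as points, with the mean as a line and the SD as bars. Pmaip1 lies at 27.1 to 33.5 CPM in Null control and at 213 CPM or more in the other 3 groups, and Bmf is highest in DKO control.

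The etoposide comparison in Null MEFs addresses how the family responds to DNA breaks in the line where TFEB and TFE3 were not inactivated, though the Tfeb transcript fell with the drug. Pmaip1, Bax, Bbc3, Bmf, Bcl2l11 and Mcl1 rose after etoposide, and Bcl2, Bid, Bak1 and Bcl2l1 fell. Of the 10 members, 10 were thus past the threshold, 6 higher and 4 lower. Of all genes tested 79.4% were past it, 42.3% higher and 37.2% lower, so the members' count is read against a background in which most genes changed. The median log2 fold change was 0.60 over the members and 0.07 over all genes tested. With library size alone in place of TMM, the median of all genes shifted up by 0.17, the higher share of the calls went from 53.2% to 64.0%, and 9 members were past the threshold, 6 higher and 3 lower.

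Pmaip1, the BH3-only protein NOXA (chr18:66458533-66465565 on GRCm38, plus strand), gave the largest difference among the members. Null control libraries held 32.4, 33.5 and 27.1 CPM and Null etoposide libraries 279, 293 and 271 CPM. The 3 libraries after etoposide all lay above the 3 without it. The log2 fold change was 3.18 (standard error 0.06, edgeR adjusted p = 1.12e-17), which is 9.04-fold. In absolute size this was above that of 90.6% of the genes tested. For reference, the p53 targets Cdkn1a, a cell cycle inhibitor, and Mdm2, the ubiquitin ligase of p53, rose by 2.94 (standard error 0.05) and by 3.92 (standard error 0.04) on the log2 scale.

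The effectors moved in opposite directions in Null MEFs. Bax (chr7:45461697-45466898, minus strand) was higher by 1.41 (standard error 0.05) and Bak1 (chr17:27019810-27029009, minus strand) was lower, with a log2 fold change of -0.49 (standard error 0.04) that was -0.32 with library size alone. Bak1 ranged from 116 to 120 CPM without etoposide and from 79.2 to 89.0 CPM after it, with no overlap.

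Among the other BH3-only genes, Bbc3 (chr7:16308393-16318205, plus strand), Bcl2l11 (chr2:128126038-128162547, plus strand) and Bmf (chr2:118528757-118549687, minus strand) rose in Null MEFs and Bid (chr6:120891930-120916853, minus strand) fell. Bbc3, which encodes PUMA, went from 20.2, 19.2 and 22 CPM to 44.1, 45.2 and 50 CPM, with no overlap. Bcl2l11, which encodes BIM, was at 24.2, 21.6 and 27.7 CPM without and 43.3, 41.6 and 38.9 CPM after etoposide. Its log2 fold change was 0.75 (standard error 0.07, edgeR adjusted p = 1.46e-08), and the libraries did not overlap. Bid, which is cleaved to its active form, ranged from 61.9 to 65.7 CPM without and from 31.1 to 34.0 CPM after etoposide, with a log2 fold change of -0.99 (standard error 0.04).

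The pro-survival genes did not share a direction. Bcl2 (chr1:106538178-106714274, minus strand) fell from 18.5, 17.4 and 17.6 CPM to 6.74, 9.09 and 8.49 CPM, a log2 fold change of -1.14 (standard error 0.08, edgeR adjusted p = 4e-10). Mcl1 (chr3:95658788-95663176, plus strand), whose protein is short-lived, rose from 446, 445 and 446 CPM to 601, 593 and 614 CPM, a log2 fold change of 0.44 (standard error 0.04, edgeR adjusted p = 9.45e-09). Bcl2l1 (chr2:152780668-152831728, minus strand) was lower by a smaller amount, with a log2 fold change of -0.23 (standard error 0.04), and with library size alone it was -0.06 and not past the threshold (edgeR adjusted p = 0.111, the highest over its 15 alternatives, whose lowest was 3.43e-06).

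The same comparison in DKO MEFs addresses the response without TFEB and TFE3. Bbc3, Bax and Bcl2l11 rose, Bmf, Bid, Bcl2, Bcl2l1 and Bak1 fell (Bak1 not with library size alone, where it was at 0.04), and Pmaip1 and Mcl1 did not pass the test. Thus 8 of the 10 members were past the threshold, 3 higher and 5 lower, beside 75.1% of all genes tested, 43.7% higher and 31.5% lower. Their median log2 fold change was -0.13, against 0.14 over all genes. Under library size alone the median of all genes shifted up by 0.27, the higher share of the calls went from 58.1% to 75.6%, and 9 members were past the threshold, 5 higher and 4 lower. Bak1 had a log2 fold change of -0.23 (standard error 0.04), against 0.04 with library size alone.

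Among the members that fell in DKO MEFs, Bcl2l1 ranged from 126 to 128 CPM without etoposide and from 67.6 to 72.6 CPM after it, with no overlap. Its log2 fold change was -0.85 (standard error 0.04, edgeR adjusted p = 7.35e-13), beside -0.23 in Null MEFs. Bcl2 ranged from 38.2 to 39.1 CPM without and from 21 to 22.2 CPM after etoposide, and Bid from 62.4 to 66.2 CPM and from 26.5 to 28.2 CPM. Neither overlapped between the treatments. Bcl2l11 had the smallest of the positive changes past the threshold, 0.37 (standard error 0.07, edgeR adjusted p = 0.000246), and with library size alone it was at 0.65. Bax was at 0.50 (standard error 0.05), and at 0.77 with library size alone.

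The levels of Pmaip1 in DKO MEFs were 213, 214 and 227 CPM without and 215, 220 and 223 CPM after etoposide, and the libraries overlapped. Pmaip1 had a log2 fold change of 0.01 (standard error 0.05, edgeR adjusted p = 0.894), which was 0.28 with library size alone (edgeR adjusted p = 0.000129, the lowest over its alternatives, whose highest was 0.966) and below 0 in some of the others. Cdkn1a and Mdm2 rose in the same DKO libraries by 2.60 (standard error 0.06) and by 2.44 (standard error 0.04) on the log2 scale. Mcl1 was at 359, 355 and 335 CPM without and 329, 332 and 362 CPM after etoposide, also with overlap, a log2 fold change of -0.04 (standard error 0.04, edgeR adjusted p = 0.401). Without replicate 3 of DKO etoposide it was -0.08 (edgeR adjusted p = 0.0433), within a range over its leave-one-out fits of 0.0433 to 0.732, and with library size alone 0.24 (edgeR adjusted p = 1.29e-05).

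Bmf, a BH3-only protein that binds dynein light chains on the cytoskeleton, went opposite ways in the 2 lines. It was measured at 0.786, 0.553 and 0.479 CPM in Null control and at 1.17, 1.11 and 1.31 CPM in Null etoposide, that is, a log2 fold change of 0.94 (standard error 0.23, edgeR adjusted p = 0.00114). DKO control libraries held 4.17, 4.73 and 4.63 CPM and DKO etoposide libraries 1.94, 1.57 and 2.01 CPM, and the log2 fold change was -1.29 (standard error 0.14, edgeR adjusted p = 1.73e-07). Bmf was the least abundant member, and its counts were between 31 and 435 per library.

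**Figure D2:**
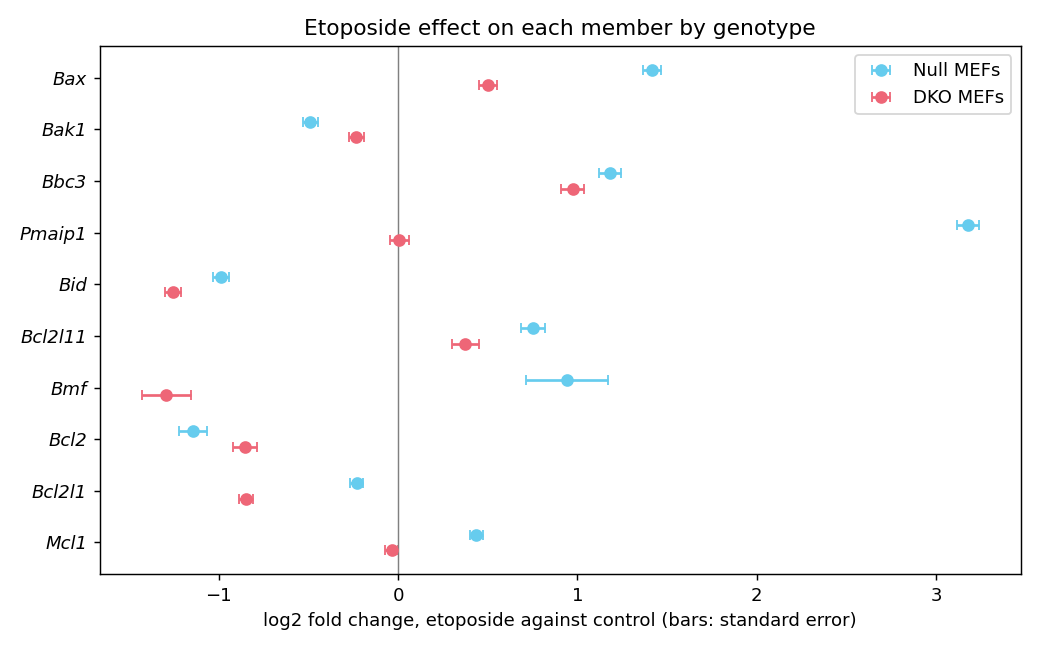
Log2 fold change of each member after etoposide (horizontal axis) in Null MEFs and in DKO MEFs, as points with the standard error as bars. Pmaip1 lies at 3.18 in Null MEFs and 0.01 in DKO MEFs (0.28 with library size alone), and Bmf lies on opposite sides of 0.

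Whether these responses differed between the genotypes was tested as an interaction, the etoposide effect in DKO MEFs minus that in Null MEFs. Of the 10 members 9 were past the threshold. Bak1 and Bcl2 were higher, and Bax, Pmaip1, Bid, Bcl2l11, Bmf, Bcl2l1 and Mcl1 lower, so 2 were higher and 7 lower, beside 54.0% of all genes tested, 29.6% higher and 24.4% lower. The higher share of all calls was 54.8%, and 65.2% with library size alone, which shifted the median of all genes by 0.10. The members' median was -0.43 and that of all genes 0.05. The 2 largest members were Pmaip1, at -3.17 (standard error 0.08, edgeR adjusted p = 9.95e-15), and Bmf, at -2.24 (standard error 0.27, edgeR adjusted p = 1.46e-06).

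Bcl2 and Bbc3 lay close to the threshold of the interaction. Bcl2 was at 0.29 (standard error 0.11, edgeR adjusted p = 0.0276). Leaving out 1 library in turn gave it adjusted p-values from 0.00416 to 0.0962, and it was not past the threshold without replicate 1 of Null control (0.068), DKO control (0.0586) or Null etoposide (0.0962, with a log2 value of 0.16) or without replicate 2 of DKO etoposide (0.0614). Bbc3 was at -0.21 (standard error 0.09, edgeR adjusted p = 0.0585). Over its leave-one-out fits the adjusted p went from 0.021 to 0.154, and with library size alone Bbc3 was at -0.0998 (edgeR adjusted p = 0.364). It was past the threshold without replicate 3 of Null control (0.021) or replicate 1 of DKO control (0.0375), Null etoposide (0.0322) or DKO etoposide (0.0284).

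Comparing the genotypes without etoposide addresses the starting levels. Bmf, Pmaip1, Bcl2, Bcl2l1 and Bax were higher in DKO MEFs (Bax not past the threshold with library size alone), and Bcl2l11, Mcl1 and Bbc3 lower. Of the 10 members 8 were past the threshold, 5 higher and 3 lower, beside 66.7% of all genes tested, 33.3% higher and 33.4% lower. The median was 0.12 over the members and -0.02 over all genes. With library size alone the median of all genes shifted down to -0.14, the higher share of the calls went from 49.9% to 38.4%, and 9 members were past the threshold, 4 higher and 5 lower. Pmaip1 was 7.02-fold higher in DKO control than in Null control, a log2 fold change of 2.81 (standard error 0.06, edgeR adjusted p = 6.44e-17), and Bmf 7.28-fold, a log2 fold change of 2.87 (standard error 0.18). Bcl2 stood at 38.2, 38.7 and 39.1 CPM in DKO control, 2.16-fold above Null control, and Bcl2l1 at 127, 128 and 126 CPM, against 73.9, 75.1 and 76.2 CPM. No DKO control library of these 4 members overlapped a Null control library, and the same held for Bax, Bbc3, Bcl2l11 and Mcl1. No share over all genes is given beside this, so it describes these members only. Bcl2l11 was lower in DKO control, at 14.9, 15 and 14.6 CPM, a log2 fold change of -0.72 (standard error 0.07, edgeR adjusted p = 1.12e-07). Mcl1 had a log2 fold change of -0.35 (standard error 0.04) and Bbc3 of -0.28 (standard error 0.07).

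Bax was 0.23 higher on the log2 scale in DKO control (standard error 0.05), which was 0.11 and not past the threshold with library size alone (edgeR adjusted p = 0.0752, the highest over its alternatives, whose lowest was 5.09e-05). Bak1 and Bid were not past the threshold between the lines without etoposide, with log2 fold changes of -0.02 and 0.01 and overlapping libraries. With library size alone both were past it, at -0.14 and -0.11.

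Comparing the genotypes after etoposide addresses where the family ends up. Bcl2, Bmf, Bak1 and Bcl2l1 were higher in DKO MEFs, and Bcl2l11, Mcl1, Bax, Bbc3, Pmaip1 and Bid lower. All 10 were past the threshold, 4 higher and 6 lower, beside 74.0% of all genes tested, 37.5% higher and 36.6% lower. The members' median was -0.30 and that of all genes -0.00446. Bcl2 had the largest positive difference, with 21.1, 22.2 and 21.0 CPM in DKO etoposide and a log2 fold change of 1.40 (standard error 0.08, edgeR adjusted p = 2.55e-11). Bcl2l11 had the largest negative one, with 19.4, 19.7 and 18.7 CPM in DKO etoposide and a log2 fold change of -1.10 (standard error 0.07, edgeR adjusted p = 1.41e-10). Mcl1 followed at -0.82 (standard error 0.04). Bcl2l1 was 0.14 higher (standard error 0.04, edgeR adjusted p = 0.00203). This call was lost with DESeq2's size factors, where the log2 fold change was 0.083 (edgeR adjusted p = 0.0501). It was also lost with a stricter filter, at 0.0777 (edgeR adjusted p = 0.0529, the highest over its alternatives, whose lowest was 0.00194). These 5 comparisons share their libraries, so they are not independent of each other.

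The order of the 4 groups differed from member to member. Bax, Bbc3, Pmaip1, Bcl2l11 and Mcl1 were highest in Null etoposide, Bmf, Bcl2, Bcl2l1 and Bid in DKO control, and Bak1 in Null control. Libraries of neighbouring groups in this order overlapped for Bak1 and Bid between the 2 control groups. They also did for Pmaip1 and Mcl1 between the 2 DKO groups. No share over all genes is given beside this, so it describes these members only.

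To compare levels between genes, they were divided by length, as CPM per kilobase of the union of a gene's exons. Mcl1 was the most abundant member in each group, from 99.7 ± 5.42 CPM per kb in DKO etoposide to 176 ± 3.11 CPM per kb in Null etoposide (SD, n = 3 each), and Bmf the least abundant, from 0.115 to 0.858 CPM per kb. Pmaip1 ranked 6 in Null control, at 11.4 ± 1.26 CPM per kb (SD, n = 3), and 2 in the other 3 groups. With the length of the longest transcript in place of the exon union, Mcl1 and Bmf kept these ranks and so did Pmaip1.

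Summed by role, the BH3-only genes held 15.9 ± 0.214% of the summed level of the 10 members in Null control, 33.9 ± 0.941% in DKO control, 32.2 ± 1.04% in Null etoposide and 34.8 ± 0.592% in DKO etoposide (SD, n = 3 each). Most of this difference lay in Pmaip1. Without it, a comparison added after the data had been seen, the other 4 BH3-only genes held 12.2 ± 0.388% of the level of the remaining members in Null control, 12 ± 0.215% in DKO control, 11 ± 0.123% in Null etoposide and 11.6 ± 0.67% in DKO etoposide (SD, n = 3 each). Their summed level was 30.8 ± 1.39, 28.8 ± 0.828, 36.3 ± 1.05 and 26.1 ± 0.975 CPM per kb in the same order (SD, n = 3 each). Pro-survival genes held 56.1 ± 0.441% in Null control, 41.9 ± 0.934% in DKO control, 44.3 ± 0.672% in Null etoposide and 38.4 ± 1.04% in DKO etoposide (SD, n = 3 each). A share can fall while the level does not, and the summed pro-survival level was 149 ± 0.292, 134 ± 3.88, 191 ± 3.43 and 118 ± 5.82 CPM per kb in the same groups (SD, n = 3 each). Most of that sum was Mcl1, at 176 CPM per kb in Null etoposide, where Bcl2 (0.885 CPM per kb) and Bcl2l1 (14 CPM per kb) were at their lowest of the 4 groups. Without Pmaip1 the pro-survival share was 58.7%, 55.8%, 58.2% and 52%. Effectors held between 23.4% and 27.9%, or between 29.2% and 36.4% without Pmaip1. These shares are a description with no test.

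**Figure D3:**
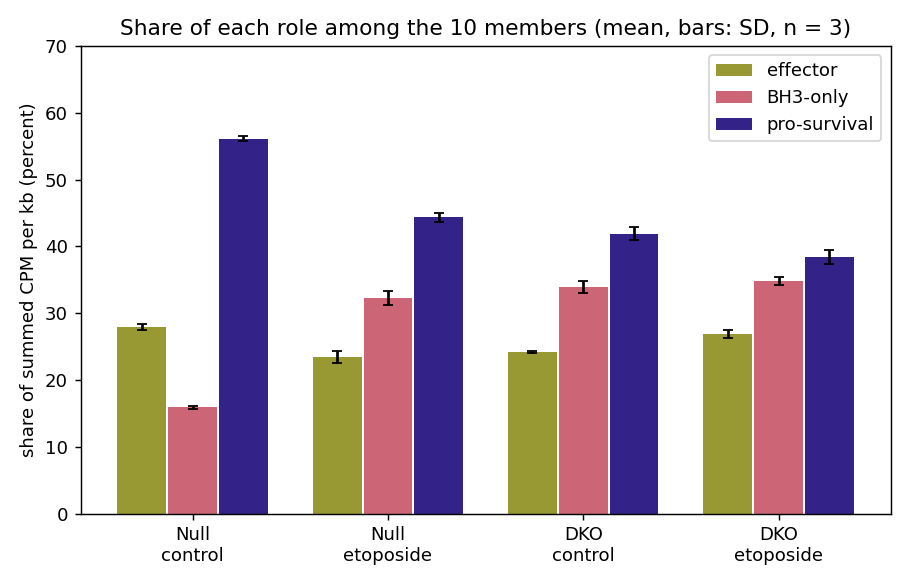
Share of the summed CPM per kb of the 10 members held by each role (vertical axis, percent) in each group, as the mean of 3 libraries with the SD as bars. The BH3-only share is 15.9% in Null control and from 32.2% to 34.8% in the other groups, and without Pmaip1 it is from 11% to 12.2% in the 4 groups.

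Ratios of counts within a library do not depend on library scaling. The log2 ratio of Bax to Bcl2 was 1.13 ± 0.05 in Null control, 0.24 ± 0.08 in DKO control, 3.70 ± 0.21 in Null etoposide and 1.59 ± 0.03 in DKO etoposide (SD, n = 3 each), and no groups overlapped. For Bax to Bcl2l1 it was -0.94 ± 0.05, -1.48 ± 0.09, 0.70 ± 0.07 and -0.13 ± 0.03 in the same order (SD, n = 3 each). These ratios are of counts not divided by length, so they compare groups and do not say which gene has the higher level. For Bax to Mcl1 the ratios were -3.51 ± 0.05, -2.94 ± 0.13, -2.53 ± 0.05 and -2.40 ± 0.09 (SD, n = 3 each), with the libraries of the 2 etoposide groups overlapping. With 3 libraries on each side, the smallest two-sided p that an exact permutation test allows is 0.1, which is above the threshold, and no test of these ratios was run.

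**Figure D4:**
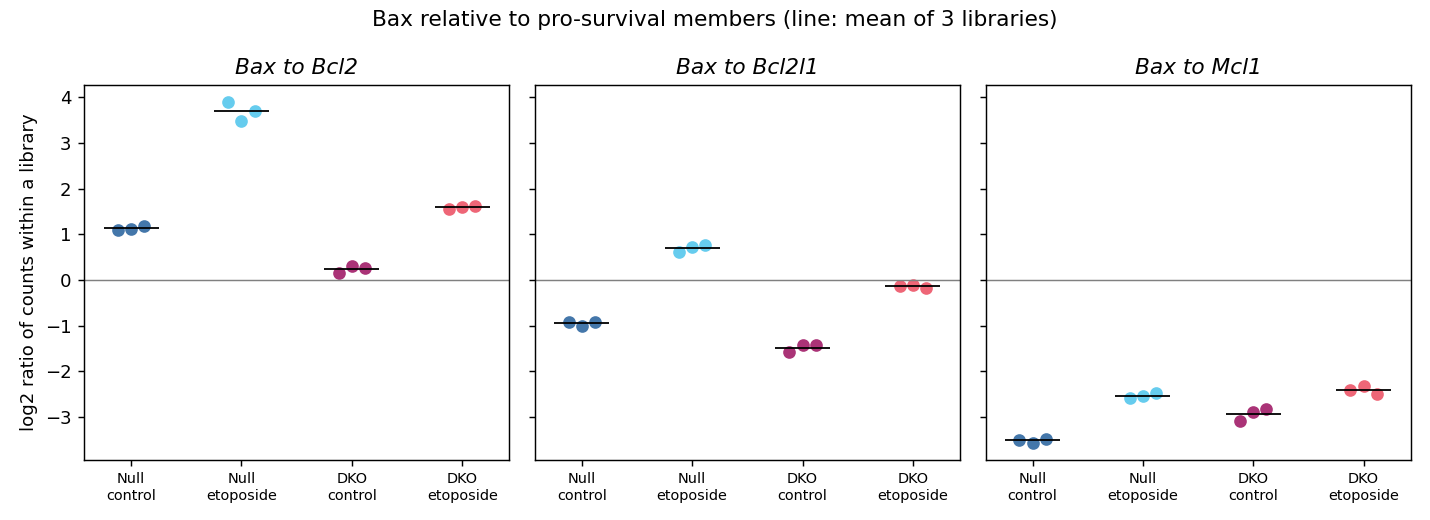
Log2 ratio of Bax counts to those of Bcl2, Bcl2l1 and Mcl1 (vertical axis) in every library, as points, with the group mean as a line. Bax to Bcl2 reaches 3.70 in Null etoposide and 1.59 in DKO etoposide.

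Among the members themselves, the pairs whose group means were most alike were Bax and Bbc3, with a root mean square difference of 0.202 over the 4 groups (log2 CPM, each gene centred on its mean), and Bcl2l11 and Mcl1, with 0.244. RefSeq promoter windows of 300 bases on GRCm38.p6, each around a RefSeq transcript start, were on hand for 9 of the 10 members (not for Pmaip1), 16 windows in all. Those starts can lie inside or before the GENCODE gene bounds given above. They are shown for these 2 pairs because their members moved alike. Each is written 5′ to 3′ along the gene's strand in lower case, and capitals mark the E-box CACGTG, the same on both strands, which TFEB and TFE3 are known to bind. The windows are Bax chr7:45466849-45467148 (minus strand), Bbc3 chr7:16310181-16310480 (plus strand), Bcl2l11 chr2:128125788-128126087 (plus strand) and Mcl1 chr3:95658471-95658770 (plus strand). Bbc3 and Bcl2l11 also have windows that are not shown, and the Bbc3 window shown is the only Bbc3 window with the E-box.
Bax: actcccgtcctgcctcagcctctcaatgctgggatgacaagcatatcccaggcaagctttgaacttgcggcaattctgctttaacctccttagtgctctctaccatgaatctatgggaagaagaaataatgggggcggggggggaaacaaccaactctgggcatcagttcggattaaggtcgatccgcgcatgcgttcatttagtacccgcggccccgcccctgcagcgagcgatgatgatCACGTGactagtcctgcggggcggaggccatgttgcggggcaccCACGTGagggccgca
Bbc3: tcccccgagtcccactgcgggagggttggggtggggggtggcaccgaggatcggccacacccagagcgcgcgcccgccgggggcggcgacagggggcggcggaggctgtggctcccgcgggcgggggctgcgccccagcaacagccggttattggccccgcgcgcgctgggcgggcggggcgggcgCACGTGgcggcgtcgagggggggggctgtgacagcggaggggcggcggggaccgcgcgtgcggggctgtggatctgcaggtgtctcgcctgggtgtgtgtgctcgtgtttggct
Bcl2l11: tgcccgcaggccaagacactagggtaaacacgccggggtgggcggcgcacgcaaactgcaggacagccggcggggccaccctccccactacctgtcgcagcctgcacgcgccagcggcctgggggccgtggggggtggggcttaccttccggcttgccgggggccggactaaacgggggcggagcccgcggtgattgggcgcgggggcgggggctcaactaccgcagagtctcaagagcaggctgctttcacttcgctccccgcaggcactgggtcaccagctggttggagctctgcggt
Mcl1: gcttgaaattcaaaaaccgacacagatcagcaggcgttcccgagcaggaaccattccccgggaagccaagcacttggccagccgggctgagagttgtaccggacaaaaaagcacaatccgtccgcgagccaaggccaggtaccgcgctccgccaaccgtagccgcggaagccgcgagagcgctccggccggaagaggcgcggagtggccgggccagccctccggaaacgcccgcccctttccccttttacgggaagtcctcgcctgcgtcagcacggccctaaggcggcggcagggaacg

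The Bax window holds 2 matches, starting 9 bases before and 35 bases after the window's RefSeq start, and this Bbc3 window 1, starting 64 bases before its own RefSeq start, which lies inside the gene. The other 2 Bbc3 windows and those of the other 7 members hold none. Of all 32851 windows 7.15% hold the E-box, and of the 16 members' windows 12.5%. The p53 consensus element, with a spacer of up to 13 bases between its parts and searched on both strands, was found in none of these 16 windows, which leave out Pmaip1, and in 0.0731% of all windows. A match is a description of the letters in the window, and no match says nothing of sites elsewhere, such as in introns.

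By position, 3 members lie on chromosome 2 and 2 on chromosome 7, and the other 5 each on a chromosome of their own. Gene spans ran from 4.39 kb for Mcl1 and 5.20 kb for Bax to 176 kb for Bcl2. Exons of 4 members overlap another gene. For Bid 17.7% of the exon bases are shared with Bcl2l13 on the opposite strand, which was measured at a mean of 118 CPM. Bak1 shares 18.2% and 7.35% with 2 annotated entries of Ggnbp1 on the opposite strand, a symbol measured at 0.846 CPM. Bax shares 12.2% with Gm45808 on the same strand and Bcl2 6.09% with D630008O14Rik on the opposite strand, and neither of these 2 genes was in the table. The library kit kept the strand, but the strand setting of the counting is not given in the sources used here, so the levels of Bid, Bak1 and Bcl2 are uncertain to that extent. For Bax, whose overlap is on the same strand, reads in the shared bases could not be assigned by strand under any setting.

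Of the other genes of the BCL2 family and BH3 genes, 12 of 17 were tested. The 5 that were not, Bcl2a1a, Bcl2a1b, Bcl2a1c, Bcl2a1d and Bcl2l10, had at most 6 counts in any library. In Null MEFs 5 rose and 4 fell with etoposide (median 0.01), and in DKO MEFs 4 rose and 3 fell (median 0.12), beside 79.4% and 75.1% of all genes past the threshold. The upward shifts of 0.17 and 0.27 given for library size alone bear on these medians and on those of the lists that follow. Bcl2l15 rose in Null MEFs by 4.51 (standard error 0.23) on the log2 scale and in DKO MEFs by 1.97 (standard error 0.29). Bok, a relative of the effectors, fell in both lines, with log2 fold changes of -1.01 and -1.07, and Bnip3, a mitochondrial BH3-like protein, with -1.10 and -0.51.

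Downstream of the family act the apoptosome and the inhibitors of apoptosis (IAPs), of which examples are given without counts over a list. Apaf1, the scaffold of the apoptosome, rose by 1.90 (standard error 0.04) in Null and by 0.78 (standard error 0.04) in DKO MEFs. Tested as an interaction, this difference was -1.11 (standard error 0.06, edgeR adjusted p = 4.01e-11). Of the IAP genes, Birc3 had log2 fold changes of -1.05 (standard error 0.06) in Null and -1.60 (standard error 0.06) in DKO MEFs, with an interaction of -0.55 (standard error 0.08, edgeR adjusted p = 2.13e-05). Birc2 had 0.55 (standard error 0.05) in Null and -0.33 (standard error 0.05) in DKO MEFs, with an interaction of -0.88 (standard error 0.07, edgeR adjusted p = 8.37e-09). Xiap, named after its values were seen, had 0.02 (standard error 0.04) in Null, not past the threshold, and -0.21 (standard error 0.04) in DKO MEFs, with an interaction of -0.24 (standard error 0.05, edgeR adjusted p = 0.000933). Without etoposide the 3 were higher in DKO than in Null MEFs, by 0.53 for Birc3, 0.92 for Birc2 and 0.50 for Xiap on the log2 scale. The interaction was positive for Diablo, at 0.56 (standard error 0.07, edgeR adjusted p = 2.06e-06), and Htra2, at 0.44 (standard error 0.06, edgeR adjusted p = 3.86e-06), which encode mitochondrial proteins that counter IAPs.

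Of the partners and turnover factors of BCL2 proteins 7 of 8 were in the table by symbol, and all 7 were tested. Etoposide raised 3 and lowered 3 in Null MEFs (median 0.10), and raised 2 and lowered 3 in DKO MEFs (median -0.09), beside the same 79.4% and 75.1% of all genes. Huwe1, a ubiquitin ligase of MCL1, had log2 fold changes of -1.34 (standard error 0.05) in Null and -0.70 (standard error 0.05) in DKO MEFs. Usp9x, a deubiquitinase of MCL1, had -0.91 (standard error 0.07) in Null MEFs and was among those that fell in DKO MEFs. Fbxw7, the substrate receptor of another ligase of MCL1, rose by 0.98 (standard error 0.04) in Null MEFs, and after etoposide was at -1.46 (standard error 0.04) in DKO against Null MEFs.

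Transcription factors known to act on members were tested for 9 of 9. In Null MEFs 4 rose and 5 fell with etoposide (median -0.29), and in DKO MEFs 3 rose and 5 fell (median -1), again beside 79.4% and 75.1% of all genes. Without etoposide Trp63, a relative of p53, was higher in DKO MEFs by 4.92 (standard error 0.14, edgeR adjusted p = 2.76e-15) on the log2 scale, and Foxo1, a known activator of Bcl2l11 transcription, by 2.03 (standard error 0.04, edgeR adjusted p = 7.54e-17). Both fell with etoposide in DKO MEFs, Trp63 with a log2 fold change of -2.76 and Foxo1 with -2.35. In Null MEFs both were also past the threshold and lower, Trp63 with -0.70 (edgeR adjusted p = 0.0345) and Foxo1 with -0.29. Foxo3, of the same family as Foxo1, went other ways. It was lower in DKO than in Null control, at -0.24 (standard error 0.06). With etoposide Foxo3 rose by 0.66 (standard error 0.05) in Null MEFs and was at -0.01 in DKO MEFs, not past the threshold. Its interaction was -0.66 (standard error 0.08, edgeR adjusted p = 1.7e-06). Trp53 itself was at -0.26 (standard error 0.04) in DKO against Null control.

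Outside these lists, the genes whose group means were most like a member's were sought by level pattern over 9302 genes (those whose mean reached 10 CPM), by the same root mean square difference over the 4 groups. For Pmaip1 they were Itga2 (0.215) and Steap3 (0.241), and for Bmf Apcdd1 (0.194) and Rspo3 (0.205). Closer matches were found for Bax (Wdr61, 0.0314, and Crem, 0.0439), Bak1 (Rbm5, 0.00791, and Arfgef2, 0.0152), Bcl2 (Myo1d, 0.0317, and Pde8a, 0.067) and Bcl2l1 (Larp1b, 0.0274, and Nacc2, 0.0526). The nearest to Mcl1 were Slc50a1 (0.0348) and BC029722 (0.0397), to Bcl2l11 Impdh1 (0.0455) and Zadh2 (0.0714), to Bid Ehbp1l1 (0.0339) and Eml1 (0.0352), and to Bbc3 Cbr4 (0.0507) and Tor1b (0.0515). Pmaip1 and Bmf thus had the most distant nearest genes of the 10 members. The difference was not scaled by how far a gene's own level varied. Group means ran from 31.0 to 281 CPM for Pmaip1 and from 0.606 to 4.51 CPM for Bmf. The part of this variation in the distances was not tested.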

How the data were processed

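Gene expression was measured by RNA-seq of total RNA depleted of ribosomal RNA in 12 MEF libraries, grouped by the sample labels. The table the authors deposited gives integer read counts for each gene, not normalized. Their methods name HISAT2 and counting with HTSeq on GENCODE genes, the submitters' processing notes name HISAT2 and featureCounts, and the 5 summary lines of the table have HTSeq's names. The summary lines held 36.9 to 46.6% of a library and were left out. The strand setting is not given in the sources used here. Of the symbols, 27 are written like dates and were left as they are, so Marchf5 could not be matched.

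The counts were fitted with edgeR 4.0.16 (R 4.3.3) after filterByExpr and TMM scaling, by glmQLFit and glmQLFTest in 1 model of the 4 groups. The installed edgeR uses an older form of this fit by default. That form was run first. The present form was chosen after those results had been seen, because earlier processing of these data used it and it needs no separate dispersion step, and the older form is given as an alternative. Standard errors were derived from each fold change and its test statistic. The 10 members and the lists were chosen with earlier results of these data known. Named genes are all members, Tfeb, Tfe3, Cdkn1a and Mdm2, examples from up to 2 genes per direction and comparison of each list with the largest change at a mean of at least 1 CPM, and the 2 nearest genes of each member. Of the genes this rule takes, 2 are not reported here, nor are the counts over the list that holds them. Gene lengths and coordinates are from GENCODE annotation of GRCm38, matched by symbol for 10 of 10 members.

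Alternatives were DESeq2 1.42.0, limma-trend (limma 3.58.1, prior count 2), DESeq2's size factors, library size alone, no filter, a stricter filter (mean of at least 1 CPM), a replicate block, the libraries of the comparison alone, each library left out in turn, the length of the longest transcript and, for the role shares, the members other than Pmaip1. The fit was also run on simulated data, whose outcome is not given here. Replicates differed by more than sampling noise, with a chi-square over its degrees of freedom of 10 to 22.1. The labels do not say whether replicates were separate cultures, so p-values measure only the spread between these samples, which may be technical.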

Additional observations from a re-analysis of the deposited data

Results flagged for a closer look

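Each of these members responded differently to etoposide in the 2 genotypes, by the interaction test of edgeR at an adjusted p below 0.05, which 54.0% of all genes tested also passed. The values are the log2 effect in DKO MEFs minus that in Null MEFs. Among the BH3-only genes, Pmaip1 was at -3.17, Bmf at -2.24, Bcl2l11 at -0.38 and Bid at -0.27 (-0.16 with library size alone). The effector Bax was at -0.92 and Bak1 at 0.26. Of the pro-survival genes, Bcl2l1 was at -0.62, Mcl1 at -0.47 and Bcl2 at 0.29. The call of Bcl2 was lost with DESeq2 (adjusted p = 0.0746), with its size factors or a stricter filter in edgeR (adjusted p = 0.0796 and 0.062) and in 4 of its leave-one-out fits. For Pmaip1 the DKO control libraries (213 to 227 CPM) already lay above Null control (27.1 to 33.5 CPM). Bmf rose in Null MEFs and fell in DKO MEFs. Groups of 3 libraries were not searched for single outlying libraries.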

How the results depend on the processing

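Over the 50 log2 fold changes of the members and their alternatives, 766 of 800 recomputed values kept their direction and their side of the threshold and 13 turned in direction. Of the 800, 12 lost the call and 12 gained it, among them 1 and 2 of those that turned. The number of members past the threshold stayed within 1.5 times of that reported in the 5 comparisons and the alternatives run. The values that turned belong to 4 results. Pmaip1 in DKO MEFs (0.01) was -0.00965 with DESeq2, -0.00949 with its size factors in edgeR, -0.0314 with no filter and -0.0388 with only the libraries of the comparison, and between -0.0161 and 0.0291 with each library left out. Mcl1 in DKO MEFs (-0.04) was 0.237 with library size alone and 0.000536 with a stricter filter. Bid between the genotypes without etoposide (0.01) was -0.107 with library size alone and between -0.00755 and 0.0357 with each library left out. Bak1 in DKO MEFs (-0.23) was 0.0419 with library size alone. The cause was not tested.

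Bcl2 in the interaction was not past the threshold with DESeq2 (adjusted p = 0.0746), with its size factors in edgeR (adjusted p = 0.0796) or with the stricter filter in edgeR (adjusted p = 0.062). Bbc3 was past it with the same 3 (adjusted p = 0.0122, 0.0179 and 0.0204), but at -0.0998 with library size alone (edgeR adjusted p = 0.364).

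The older form of edgeR's fit, listed as an alternative after the data had been seen, called 78.4, 75.3, 67.4, 72 and 54.6% of all genes in the order Null etoposide, DKO etoposide, genotypes without etoposide, genotypes after etoposide and interaction, and 10, 8, 8, 10 and 9 members, as many as the present form.

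With the longest transcript as length, the shares in Null control, DKO control, Null etoposide and DKO etoposide were 28.2%, 24.6%, 26.9% and 29.1% for effectors, 18%, 32.6%, 31.1% and 33.1% for BH3-only genes and 53.8%, 42.8%, 41.9% and 37.8% for pro-survival genes, so the highest effector share was in DKO etoposide and no longer in Null control. This follows from the other lengths. Without Pmaip1, an alternative added after the data had been seen, the shares in the same order were 29.2%, 32.2%, 30.8% and 36.4% for effectors, 12.2%, 12%, 11% and 11.6% for BH3-only genes and 58.7%, 55.8%, 58.2% and 52% for pro-survival genes.

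Same-numbered libraries gave no clear sign of pairing: 1 of 18 correlations of their deviations was over 0.1 (range -0.101 to 0.107). With 3 libraries in each group this check cannot exclude that the numbers pair the libraries. With the replicate block 10 members were past the threshold with etoposide in Null MEFs, 8 in DKO MEFs, 8 between the genotypes without etoposide, 10 after it and 9 in the interaction, as many as without the block. Depth limits Bmf most, with 31 counts in its lowest library.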
